A study of Mus musculus with 7 samples.

Results

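A set of 10 genes that mark neurons releasing serotonin, noradrenaline, histamine or acetylcholine were followed through the midbrain of the mouse line Stard8-TRAP ES2342. The 10 were picked by name out of 32531 gene rows, 9 for making, storing, retrieving or breaking down these transmitters and Fev as a transcription factor that marks serotonin neurons. They were Tph2, Slc6a4 and Fev for serotonin, Dbh and Slc6a2 for noradrenaline, Hdc for histamine, and Chat, Slc18a3, Slc5a7 and Ache for acetylcholine. All 10 passed the low-count filter that left 17654 genes for testing.

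The mice were untreated adult controls carrying the fusion Stard8-EGFP/Rpl10a, in which regulatory sequence of Stard8 drives a green fluorescent ribosomal protein, and no mice without it were analysed here. Translating ribosome affinity purification (TRAP) used antibodies against EGFP to separate tagged ribosomes and their RNA (IP, 3 libraries, numbered 1, 2 and 4) from the RNA left over (unbound, 4 libraries, numbered 1 to 4). The sources used here do not give sex, exact age or the number of animals per library. The labels do not say that the replicates came from separate animals, so the p-values measure the spread between these libraries. In such bulk RNA, fewer cells of a type and less RNA per cell cannot be told apart.

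Serotonin neurons of the midbrain lie in the raphe nuclei, and noradrenaline neurons lie mostly in the locus coeruleus and other hindbrain groups at and behind the border of the midbrain. Acetylcholine is released by cranial motor neurons, which include the oculomotor group of the midbrain, and by tegmental and habenular neurons. Histamine neurons sit in the posterior hypothalamus, and outside neurons histamine is made by mast cells.

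The libraries held 52052340 to 76114634 counts in gene rows. Levels are given in CPM (counts per 1000000 counts) scaled by the trimmed mean of M values (TMM), and 3 counts correspond to 0.0376 to 0.059 CPM. The 26 genes of a pan-neuronal list made up 0.620%, 0.698% and 1.28% of the counts in IP 1, 2 and 4. For unbound 1 to 4 the shares were 2.42%, 2.29%, 3.01% and 3.31%. All 26 were lower in IP, with a median log2 fold change of -1.69, whereas all 8 endothelial, 6 mural and 6 microglia and macrophage markers were higher in IP. The pan-neuronal genes were thus present in IP but lower than in unbound, although the study title speaks of neurons. Each label also carries an index sequence and a lane. IP 1, IP 2, unbound 1 and unbound 2 carried index ACAGTG (called set A), and IP 4, unbound 3 and unbound 4 carried GTGAAA (set G). IP libraries were run on lanes 2 and 5 and unbound libraries on lanes 1 and 3, so lane and group cannot be told apart. In both groups the pan-neuronal share was highest in set G.

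Tph2 encodes the neuronal tryptophan hydroxylase, the rate-limiting enzyme of serotonin synthesis, and Slc6a4 encodes the serotonin transporter that returns serotonin to the cell. Both genes are protein coding, with Tph2 at chromosome 10 115078641 to 115185022 (minus strand) and Slc6a4 at chromosome 11 76998603 to 77032340 (plus strand) in GRCm38. Their sequences upstream of the transcription start are shown because the data of both genes moved together across libraries. They are the 250 bases before the start, at chr10:115185023-115185272 for Tph2 and chr11:76998347-76998596 for Slc6a4, 5′ to 3′ on the gene's strand, from RefSeq on GRCm38.p6.
Tph2: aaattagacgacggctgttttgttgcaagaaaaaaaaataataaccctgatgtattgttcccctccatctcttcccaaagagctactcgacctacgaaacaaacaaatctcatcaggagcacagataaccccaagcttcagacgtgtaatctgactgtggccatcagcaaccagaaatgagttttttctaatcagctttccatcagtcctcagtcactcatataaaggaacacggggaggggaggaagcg
Slc6a4: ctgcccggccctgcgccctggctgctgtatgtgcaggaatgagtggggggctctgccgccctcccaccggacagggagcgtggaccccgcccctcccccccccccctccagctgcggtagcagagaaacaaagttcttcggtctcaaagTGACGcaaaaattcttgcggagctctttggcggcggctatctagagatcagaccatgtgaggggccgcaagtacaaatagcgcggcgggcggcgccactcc
Capitals mark a match to TGACG, the core of the cAMP response element. The motifs searched on both strands were TGACG, the ETS factor core CGGAA (Fev is such a factor), the paired homeodomain motif of the Phox2 factors of noradrenaline neurons, CAGCACC (the left part of the element of the repressor REST) and its right part GGACAGC. Of 32851 promoter windows of this length, they were held by 17.8%, 25.2%, 0.463%, 5.73% and 5.28%. The Slc6a4 window held 1 TGACG and none of the others, and the Tph2 window held none of them. Promoter windows were found for 9 of the 10 genes, not for Slc6a2.

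Tph2 stood at 4.36, 6.43 and 16.0 CPM in IP 1, 2 and 4, and at 8.71, 19.3, 29.3 and 33.96 CPM in unbound 1 to 4. IP 4 lay above unbound 1, so the groups overlapped, and within each group the set G libraries were the highest. Slc6a4 followed with 3.95, 7.35 and 13.6 CPM in IP and 9.01, 19.4, 27.1 and 27.6 CPM in unbound, with the same overlap of IP 4 and unbound 1. Per kilobase of exon, Tph2 was 1.38 to 1.94 times as high as Slc6a4 in each of the 7 libraries. Likeness of profiles was measured as the root mean square difference of centred log2 CPM over the 7 libraries, among 14950 genes with a mean of at least 1 CPM. Each of these 2 genes was the nearest of all genes to the other, at 0.16. The next nearest to Tph2 were Slc17a8, a vesicular glutamate transporter, at 0.23 and 4933413G19Rik at 0.26. Those of Slc6a4, named after their values were seen, were Abca8b at 0.23 and Omg at 0.24.

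Fev, an ETS transcription factor of serotonin neurons (chromosome 1, 74881509 to 74885419, minus strand), was low and followed them less closely than they followed each other. It had 0.614, 1.34 and 0.256 CPM in IP 1, 2 and 4, from 46, 77 and 13 counts, and 0.414, 1.31, 4.06 and 2.88 CPM in unbound 1 to 4. IP 4, which held the most Tph2 of the IP libraries, held the least Fev. IP 2 lay above unbound 1 and about level with unbound 2 (77 and 76 counts). The exact Poisson 95% intervals of Fev, which cover counting error only, were 0.136 to 0.437 CPM in IP 4 and 1.06 to 1.68 CPM in IP 2, and did not overlap. The ratio of Tph2 to Fev per kilobase was therefore 35.1 in IP 4 and 2.69 to 11.8 in the other libraries. Fev ranked 6525 in likeness to Tph2, at a difference of 1.10. Seen from Fev, whose differences from other genes were larger (median 1.41), Slc6a4 ranked 375 at 1.05 and Tph2 ranked 738.

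**Figure D1:**
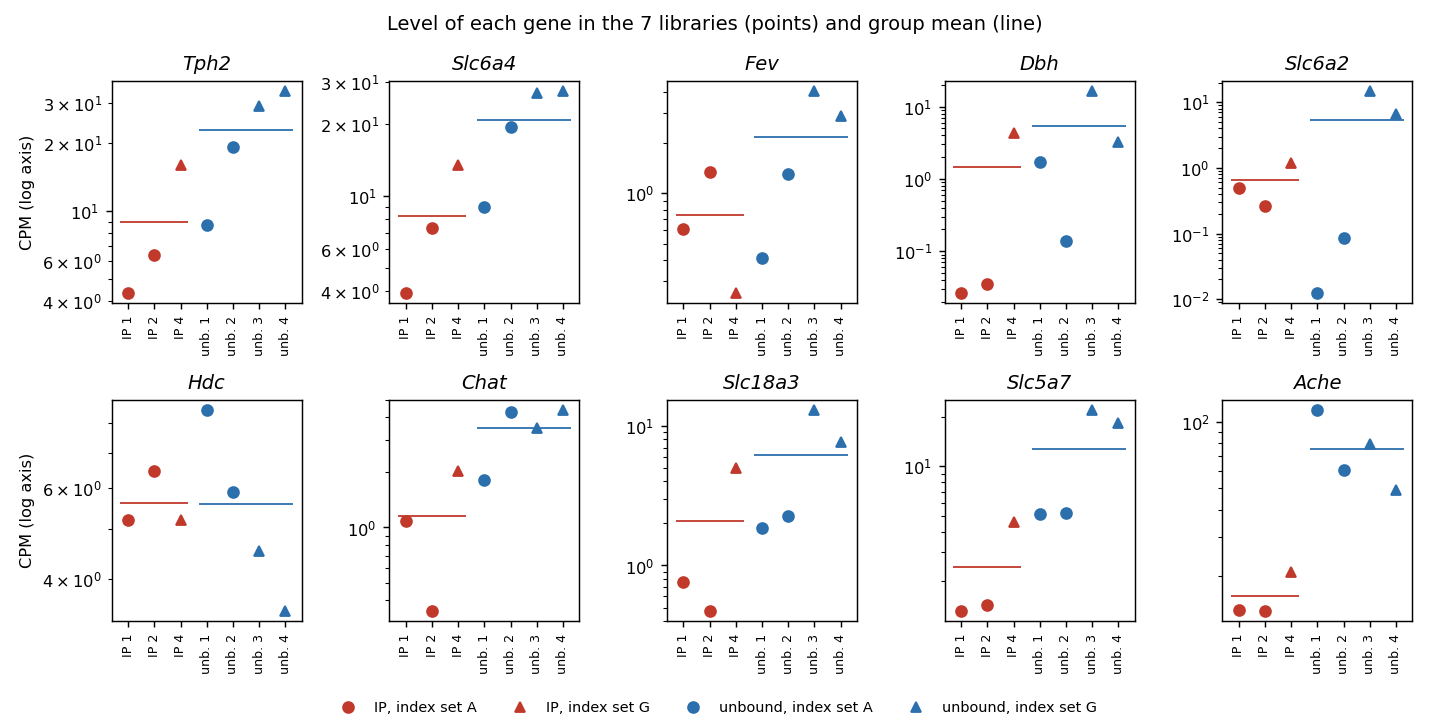
CPM of each gene (log axis) in the 3 IP and 4 unbound libraries, 1 point per library, with circles for index set A and triangles for set G and horizontal bars at the group means. Slc5a7 and Ache are the genes whose IP points all lie below the unbound points, and Dbh and Slc6a2 spread most within unbound.

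The question of the design is which RNA the tagged ribosomes carry, and edgeR's quasi-likelihood test with Benjamini-Hochberg adjustment over all tested genes was used to compare IP with unbound. Of the 10 genes, 3 were lower in IP, where 18.9% of all tested genes were, and 0 were higher, where 20.5% of all tested genes were. At an unadjusted p below 0.05 there were 5 of the 10 genes, all lower in IP, and 48.3% of all tested genes. Every IP library lay below every unbound library for 2 of the 10 genes and for 22.7% of all tested genes, and above them for 0 of the 10 and for 25.1% of all. The median log2 fold change of the 10 was -1.59, against -0.10 over all tested genes and -1.69 over the pan-neuronal list.

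Slc6a4 was lower in IP by edgeR, at a log2 value of -1.33 ± 0.48 (SE) with an adjusted p of 0.048. This call was lost without IP 1, IP 2, unbound 2, unbound 3 or unbound 4 (adjusted p = 0.161, 0.147, 0.0576, 0.108 and 0.111). For Tph2 the log2 fold change was nearly the same, -1.35 ± 0.53, but the adjusted p of 0.0646 missed the threshold of 0.05. Tph2 passed it without unbound 1 (-1.62, adjusted p = 0.023), without IP 4 (-2.07, adjusted p = 0.015) and with DESeq2 (-1.35, adjusted p = 0.0218). Fev had -1.55 ± 0.86 and an adjusted p of 0.176. Platelets also express Slc6a4, and the summed CPM of a list of 5 platelet markers was 58.4 to 73.7 in IP and 2.78 to 7.34 in unbound. Of these markers Pf4 and Ppbp were higher in IP and 0 were lower. Most of the sum was Pf4, a platelet chemokine also found in macrophages, and their part in the Slc6a4 level was not tested.

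Other genes of serotonin neurons moved in both directions. Of 19 on a list of the pathway, all tested, 4 were higher in IP and 8 lower, against 20.5% and 18.9% of all tested genes. The median log2 fold change of the list was -1.04. The higher ones included Gata2, a transcription factor shared by serotonin neurons and endothelium, at 158 ± 25.4 CPM in IP against 10.96 ± 2.04 in unbound (SD, n = 3 and 4), a log2 fold change of 3.85 ± 0.25. Endothelial markers, led by Slc2a1, summed to 1948 to 2573 CPM in IP and 41.3 to 63.1 in unbound, and their part in the Gata2 level was not tested. Gata3, another transcription factor of the list, named after its values were seen, was lower at -1.70 ± 0.28 (adjusted p = 0.000809). It stood at 6.79 ± 1.20 CPM in IP and 22.0 ± 4.08 in unbound (SD). The factor En2 was also lower (-1.04 ± 0.33, adjusted p = 0.0281), while Lmx1b, En1 and Nkx2-2 were not called. Gch1, which makes the first step toward the hydroxylase cofactor tetrahydrobiopterin, was higher by 2.36 ± 0.32 (log2, adjusted p = 0.000228). Its feedback regulator Gchfr was lower by the fit, at -2.68 ± 0.60 (adjusted p = 0.00532). Maoa, a monoamine oxidase, was higher by 1.79 ± 0.21 on the log2 scale, and Qdpr, which recycles the cofactor, had -1.60 ± 0.32 (adjusted p = 0.00295). Maob, the other oxidase, was also higher and is described with histamine. Among the 8 lower genes were 4 serotonin receptors, named after their values were seen. Htr1a, the autoreceptor on the cell bodies of serotonin neurons, stood at 7.003 ± 1.16 CPM in IP and 20.5 ± 6.67 in unbound (SD), a log2 value of -1.55 ± 0.34 (adjusted p = 0.00445). Htr1b, the autoreceptor of the terminals, had -1.67 ± 0.45 (adjusted p = 0.0134), a call lost without IP 2 (0.0667). Htr1d (-1.12 ± 0.38, adjusted p = 0.0371) and Htr5b (-1.50 ± 0.51, adjusted p = 0.0385) each lost the call without IP 1, IP 2, unbound 1, unbound 3 or unbound 4 (0.0507 to 0.153 and 0.0533 to 0.135).

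Dbh encodes dopamine beta-hydroxylase, which turns dopamine into noradrenaline, and Slc6a2 encodes the noradrenaline transporter. Dbh lies at chromosome 2 27165233 to 27183200 (plus strand) and Slc6a2 at chromosome 8 92960079 to 93001667 (plus strand). Dbh had 2, 2 and 220 counts in IP 1, 2 and 4 (0.0267, 0.0349 and 4.32 CPM), and 135, 8, 864 and 184 counts in unbound 1 to 4 (1.69, 0.137, 16.4 and 3.25 CPM). IP 1 and IP 2 lay under the level of 3 counts, while IP 4 exceeded 3 of the 4 unbound libraries. Slc6a2 had 37, 15 and 60 counts in IP (0.494, 0.261 and 1.18 CPM), and 1, 5, 781 and 375 in unbound (0.0125, 0.0859, 14.8 and 6.62 CPM). Here all 3 IP libraries exceeded unbound 1 and unbound 2, and all lay below unbound 3 and unbound 4.

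The 2 noradrenaline genes did not keep a fixed proportion. Per kilobase, Dbh over Slc6a2 was 8.57 in IP 4, and 3.74, 2.58 and 1.15 in unbound 2, 3 and 4. In unbound 1 the counts were 135 for Dbh and 1 for Slc6a2, whereas IP 1 had 2 and 37. Neither gene passed the test between IP and unbound. The fitted log2 change was -1.88 ± 1.61 for Dbh (adjusted p = 0.38), which was called lower without IP 4 (adjusted p = 0.0167), when each remaining IP library held 2 counts. Slc6a2 had -3.06 ± 1.61 (adjusted p = 0.156), and the sign turned within set A (2.94 ± 1.53, adjusted p = 0.21).

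Across the unbound libraries the log2 range was 8.37 for Slc6a2 and 6.60 for Dbh, against a median of 1.10 over all tested genes. Nearest in profile to Dbh were Slc6a5, the neuronal glycine transporter, at 1.17, then Cbln3, a cerebellin of cerebellar granule cells, at 1.28 and the neuronal transcription factor Neurod2 at 1.38. Those of Slc6a2 were the Hox transcription factors Hoxb5 at 1.05 and Hoxb3 at 1.21, then Vwa7 at 1.24. These differences are far larger than the 0.16 between Tph2 and Slc6a4, but such differences grow with the range of a gene. The median difference over all compared genes was 3.05 from Dbh and 2.88 from Slc6a2, against 1.16 from Tph2. Hox genes are not expressed in the midbrain itself but from the hindbrain backward. The summed CPM of 10 Hox genes was 2.52, 0.859, 31.8 and 18.0 in unbound 1 to 4 and 0.454, 1.499 and 4.34 in IP 1, 2 and 4. Thus the libraries of set G held the highest Hox sums of their group, as they held the highest Slc6a2. For 9 hypothalamic genes the sums ran the other way in unbound, at 131.7, 76.6, 27.3 and 29.3 CPM, and were 25.0, 10.9 and 11.1 in IP. The neuropeptide Avp made up 61.4 CPM of the sum in unbound 1, against 3.93, 0.323 and 4.66 CPM in unbound 2 to 4. Hcrt, at 11.5, 27.7, 6.87 and 5.65 CPM in unbound 1 to 4, was also higher in set A. Named after their values were seen, Hoxa4 and Hoxa5 of the 7 tested Hox genes, and the peptides Hcrt and Trh of the 9 hypothalamic genes, were lower in IP. The Hox calls rest on few counts. Hoxa4 had 0 counts in each IP library and 43, 0, 85 and 58 in unbound 1 to 4. Hoxa5 had 0, 1 and 0 counts in IP and 2, 16, 98 and 27 in unbound. The part of the dissected region in these levels was not tested.

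**Figure D2:**
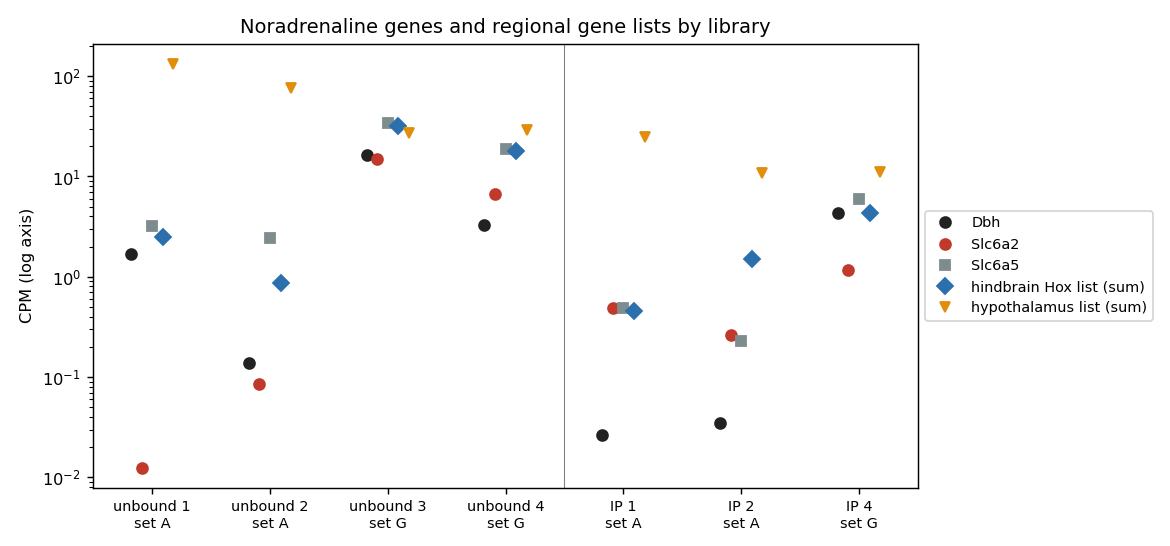
CPM on a log axis of Dbh, Slc6a2 and Slc6a5, and summed CPM of the Hox and hypothalamus lists, in each unbound and IP library, labelled by index set A or G. In unbound 3 and 4 the noradrenaline genes and the Hox sum lie above their values in unbound 1 and 2, and the hypothalamus sum lies below.

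Among 15 other genes of noradrenaline neurons, 12 were tested, with a median log2 fold change of -0.59. Of the 12, 2 were higher in IP and 3 lower, against 20.5% and 18.9% of all tested genes. Gal, the neuropeptide galanin that many locus coeruleus neurons hold, was lower at -3.46 ± 0.85 (adjusted p = 0.00865), and the transcription factor Tfap2b at -1.95 ± 0.38 (adjusted p = 0.00232). Gal did not follow Dbh and Slc6a2 across the unbound libraries. It stood at 7.57, 14.6, 2.37 and 1.27 CPM in unbound 1 to 4, higher in set A, whereas Dbh and Slc6a2 were higher in set G. Cyb561, the vesicle cytochrome that supplies electrons to Dbh, was lower at -0.80 ± 0.27 (adjusted p = 0.0343). It lost its call without IP 1, IP 2, IP 4, unbound 1 or unbound 3 (adjusted p = 0.0704, 0.135, 0.0926, 0.0691 and 0.0598). Maoa, which degrades catecholamines, was among the higher ones.

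Hdc encodes histidine decarboxylase, which makes histamine (chromosome 2, 126593667 to 126619299, minus strand). It stood at 5.19, 6.47 and 5.19 CPM in IP and at 8.51, 5.89, 4.52 and 3.46 CPM in unbound. The IP libraries lay inside the range of the unbound ones, and the log2 fold change was 0.00 ± 0.38 (adjusted p = 0.995). Hdc was higher in the set A libraries of unbound. The genes nearest to it were Acad10 at 0.10, Ormdl1 at 0.13 and Pex11a at 0.14, which are a member of the acyl-CoA dehydrogenase family, a regulator of sphingolipid synthesis and a peroxisomal protein. Of 11 mast cell markers, 4 had 0 counts in every library and 1 was tested, the receptor Kit, which neurons also express and which was lower in IP at -1.36 (adjusted p = 0.0297). Summed mast cell markers were 2.99 to 11.4 CPM in IP and 14.4 to 25.9 in unbound, nearly all of it Kit.

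Of 8 other genes of histamine neurons and signalling, 7 were tested, with a median of -0.77. Of the 7, 1 was higher and 3 were lower in IP, against 20.5% and 18.9% of all tested genes. The receptor Hrh3, which restrains histamine release, was lower at -1.04 ± 0.27 (adjusted p = 0.0117), except without IP 2 (adjusted p = 0.0709). Hrh2, another histamine receptor, was lower at -1.06 ± 0.32 (adjusted p = 0.0229), but not without IP 1 (0.111), IP 2 (0.0808) or unbound 3 (0.0655). The transcription factor Lhx9 was lower at -1.36 ± 0.35 (adjusted p = 0.0102), except without IP 1 (0.0519). Maob, which also oxidises the methylated product of histamine, was higher at 0.99 ± 0.34 (adjusted p = 0.0399). That call was lost without IP 1, IP 2, IP 4, unbound 3 or unbound 4 (0.106, 0.0906, 0.0678, 0.0957 and 0.0682).

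Chat encodes choline acetyltransferase, which makes acetylcholine (chromosome 14, 32408203 to 32465989, minus strand). Slc18a3, the transporter that loads acetylcholine into vesicles, lies inside it on the same strand, at 32462438 to 32464850, and the annotation gives the 2 genes no exon bases in common. Slc5a7, at chromosome 17 54273590 to 54299034 (minus strand), takes choline back into the terminal. Ache, at chromosome 5 137287519 to 137294466 (plus strand), breaks acetylcholine down, and 2.12% of its exon bases are shared with Gm42456 on the other strand, which matters if strand was not used in counting.

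Chat stood at 1.08, 0.349 and 2.04 CPM in IP and 1.82, 4.26, 3.51 and 4.41 CPM in unbound, with IP 4 just above unbound 1. Slc18a3 stood at 0.760, 0.471 and 4.97 CPM in IP and 1.84, 2.27, 13.1 and 7.66 in unbound, with IP 4 above unbound 1 and 2. Slc5a7 had 1.31, 1.43 and 4.58 CPM in IP and 5.10, 5.17, 22.2 and 18.4 in unbound. Slc5a7 thus did not overlap between groups, although IP 4 came close to the lower 2 unbound libraries. Ache, at 14.0, 13.9 and 20.8 CPM in IP and 114, 60.7, 79.5 and 49.0 in unbound, showed the clearest gap of the 10. Its highest unbound library was unbound 1, the lowest one for the other 3 cholinergic genes.

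The fit placed Ache lower in IP at -2.22 ± 0.33 on the log2 scale (adjusted p = 0.000461), and leaving out any 1 library did not end that call. Slc5a7 was lower at -2.39 ± 0.68 (adjusted p = 0.0174), a call lost without IP 1 (0.07) or IP 2 (0.0777). Chat had -1.60 ± 0.64 (adjusted p = 0.0714) and passed without unbound 1 (-1.81, adjusted p = 0.0422), without IP 4 (-2.27, adjusted p = 0.0318) and with DESeq2 (-1.60, adjusted p = 0.0238). Slc18a3 had -1.59 ± 0.91 (adjusted p = 0.188) and passed without IP 4 (-3.32, adjusted p = 0.0199). Red blood cells also carry Ache, and erythroid markers, led by Hbb-bs, summed to 1.76 to 3.76 CPM in IP and 9.99 to 58.8 in unbound. Both tested erythroid markers of the 4 with a row were lower in IP, and their part in the Ache level was not tested.

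The 3 cholinergic genes specific to these neurons did not keep one proportion. Per kilobase, Slc18a3 over Chat was 1.04 to 2.63 in the 4 libraries of set A and 3.38 to 7.26 in the 3 of set G, so the sets did not overlap. Slc5a7 over Slc18a3 varied less, from 0.394 to 1.30. The profiles nearest to Chat were Slc7a4 at 0.33, I730030J21Rik at 0.33 and Crhr1, a receptor of corticotropin-releasing hormone, at 0.35.

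Of 24 other genes linked to cholinergic neurons, 20 were tested. Of these 1 was higher and 8 were lower in IP, against 20.5% and 18.9% of all tested genes. The median log2 fold change of the 20 was -1.79, near the -1.69 of the pan-neuronal list. The lower genes included Calca, which encodes the peptide CGRP, at -3.13 ± 0.45 (adjusted p = 0.000377), the intermediate filament Prph at -2.97 ± 0.40 (adjusted p = 0.000219) and the endopeptidase Ecel1 at -2.27 ± 0.39 (adjusted p = 0.00121). Tbx20, a transcription factor of cranial motor neurons named after its values were seen, was not called (2.91 ± 1.18, adjusted p = 0.0733). It stood at 5.28, 5.04 and 2.59 CPM in IP, above the 0, 0.0687, 1.67 and 0.565 CPM of unbound 1 to 4. The choline transporter-like Slc44a1 (-0.68 ± 0.25, adjusted p = 0.0517) and choline kinase Chka (-0.19 ± 0.26, adjusted p = 0.592), the most abundant of the list, were not called. Slc44a1 passed without unbound 1 (0.023) or unbound 2 (0.0281). The higher gene was Bche, butyrylcholinesterase, named after its value was seen, at 1.78 ± 0.54 (adjusted p = 0.0228), and the call was lost without IP 2 (0.0599) or IP 4 (0.0591). Bche stood at 18.0 ± 2.27 CPM in IP and 5.28 ± 3.62 in unbound (SD), opposite in direction to Ache.

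**Figure D3:**
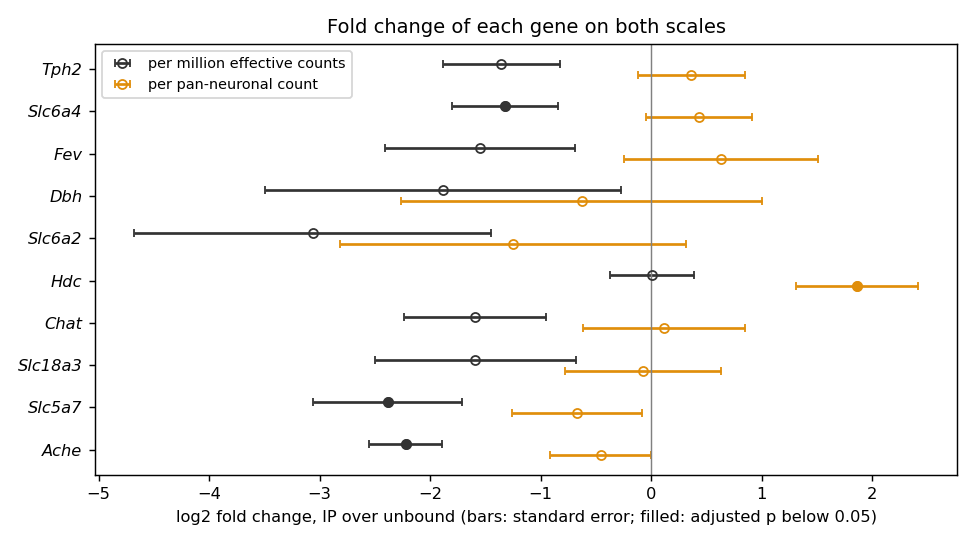
Log2 fold change of IP over unbound for each of the 10 genes, with standard errors as bars, on TMM-scaled library totals (black) and per pan-neuronal count (orange), with filled circles where the adjusted p is below 0.05. The filled points are Slc6a4, Slc5a7 and Ache below 0 on library totals and Hdc above 0 per pan-neuronal count.

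Because these are neuronal genes, they were also compared per pan-neuronal count, using the summed counts of the 26 pan-neuronal genes as library size. On that scale a log2 fold change of 0 means as much lower in IP as pan-neuronal RNA. Snap25, the most abundant of the 26, made up a large part of the sum. It gave 186128 of the 439600 counts in IP 1 and 879143 of the 1874196 in unbound 4. Of the 10 genes, 1 was higher in IP per pan-neuronal count, where 66.6% of all tested genes were, and 0 were lower, where 0.912% of all tested genes were. The median of the 10 was 0.02, against 1.80 for all tested genes. At an unadjusted p below 0.05 there was 1 of the 10, with edgeR as before. Of the genes on the serotonin, noradrenaline, histamine, cholinergic and habenula lists, 0 were lower on this scale. Higher were 7 of 19, 8 of 12, 4 of 7, 5 of 20 and 3 of 9 tested. The list medians were 0.95, 1.30, 1.09, 0.05 and 0.28.

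In CPM of the pan-neuronal total, Tph2 stood at 744, 1007 and 1221 in IP and 377, 722, 955 and 1027 in unbound. The fitted difference was 0.36 ± 0.48 (log2, adjusted p = 0.518), the ranges overlapped, and unbound 1 was the lowest of the 7. Slc6a4 (0.43 ± 0.48), Fev (0.63 ± 0.88), Chat (0.12 ± 0.73), Slc18a3 (-0.07 ± 0.70), Slc5a7 (-0.67 ± 0.59) and Ache (-0.46 ± 0.46) did not pass either, with adjusted p from 0.316 to 0.933. Dbh (-0.63 ± 1.63, adjusted p = 0.755) and Slc6a2 (-1.25 ± 1.56, adjusted p = 0.504) had the widest errors of the 10. Dbh was called lower per pan-neuronal count without IP 4 (adjusted p = 0.0238).

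Hdc was the gene called higher per pan-neuronal count, at 1.86 ± 0.55 (adjusted p = 0.00377). On the same scale it had 885, 1012 and 397 in IP and 368, 221, 147 and 105 in unbound. All IP values exceeded all unbound values, though IP 4 and unbound 1 nearly met. The 1.86 is close to the 1.80 median of all tested genes, so on this scale Hdc lay with genes in general and the other 9 lay below.

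**Figure D4:**
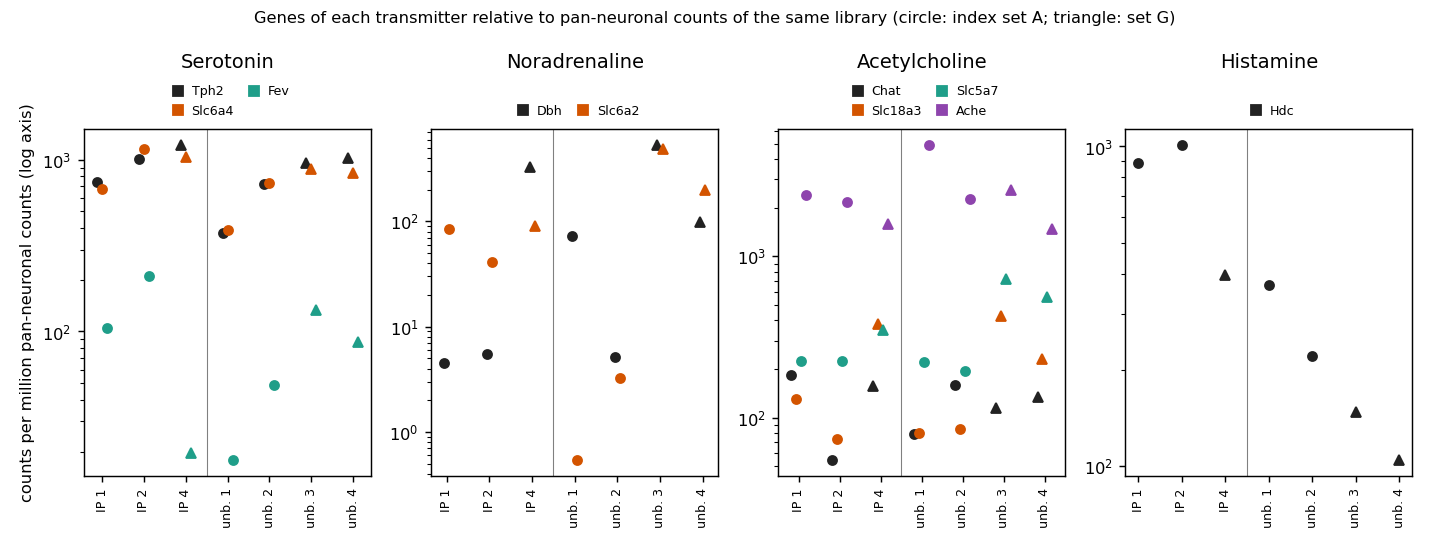
Counts of each gene relative to pan-neuronal counts (in CPM of those counts, log axis) in each library, with a panel per transmitter, colours for genes, circles for index set A and triangles for set G. IP and unbound points overlap for each gene except Hdc, whose IP points run from 397 to 1012 and unbound points from 105 to 368.

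The pattern of set G above set A was then described across the 10 genes, a comparison chosen after the values were seen. In unbound, both set G libraries exceeded both set A libraries for 7 of the 10 genes and for 20.1% of all tested genes. The exceptions were Hdc, Chat and Ache. In IP, library 4 exceeded IP 1 and IP 2 for 8 of the 10 genes, all but Fev and Hdc, and for 39% of all tested genes. With edgeR and the group as a term, the log2 difference of set G over set A was 4.63 ± 1.04 for Dbh, 5.71 ± 1.49 for Slc6a2, 2.60 ± 0.40 for Slc18a3, 1.89 ± 0.27 for Slc5a7, 1.33 ± 0.31 for Tph2 and 1.07 ± 0.33 for Slc6a4. These 6 had an unadjusted p below 0.05, as did 11.4% of all tested genes. After adjustment 0 of the 10 genes passed and 0% of all tested genes did, with adjusted p from 0.201 to 0.358 for the 6. The median of the 10 was 1.20, that of the pan-neuronal list 0.63 and that of all tested genes -0.0021.

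Unbound 1 weighed heavily in that comparison. Without it 711 genes passed, of which 381 (2.19% of the genes tested there) were higher in set G. Among these were Dbh (adjusted p = 0.0252), Slc18a3 (0.0342), Slc5a7 (0.0342) and Tph2 (0.0496). All 7 tested Hox genes had a positive set difference and 0 of the 9 hypothalamic genes had one. The labels do not say what else differed between the index sets, and the origin of the difference was not tested.

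The IP effect was also read within each index set. Within set A, where Dbh had too few counts to be tested, Ache alone of the other 9 was lower (-2.65 ± 0.41, adjusted p = 0.0101), as were 9.77% of the genes tested there. Set G holds 1 IP library against 2 unbound ones, which leaves 1 residual degree of freedom, and its lone IP library had to be assumed to vary like the unbound ones. Under that assumption 7 of the 10 genes and 18.9% of the genes tested there were lower. They included Slc6a2, at -3.16 ± 0.54 (adjusted p = 0.000323), and Fev, at -3.73 ± 0.73 (adjusted p = 0.000674) from the 13 counts of IP 4. In set A Fev had 0.18 ± 1.07 (adjusted p = 0.917). The difference of the IP effect between sets was -3.94 ± 1.45 for Fev and -6.18 ± 1.42 for Slc6a2 on the log2 scale (adjusted p = 0.835 and 0.757). By edgeR's test of that difference, 0 of the 10 genes and 0% of all tested genes passed, while 2 of the 10 and 5.77% of all had an unadjusted p below 0.05.

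Levels were compared between genes per kilobase of exon. In unbound the order of CPM per kilobase was Ache (16.4 ± 6.13, SD, n = 4), Tph2 (7.92 ± 3.90), Slc6a4 (4.59 ± 1.92), Slc18a3 (2.57 ± 2.19), Slc5a7 (2.25 ± 1.57), Dbh (1.99 ± 2.77), Fev (1.34 ± 1.004), Hdc (0.876 ± 0.342), Slc6a2 (0.856 ± 1.12) and Chat (0.744 ± 0.253). Among neighbours in this order, only Ache and Tph2 differed by more than the larger SD, and even their ranges overlapped. In IP the first 3 places were unchanged, at 3.51 ± 0.857, 3.10 ± 2.15 and 1.83 ± 1.08, and Hdc came next at 0.879 ± 0.115. With the length of the longest transcript in place of all exons, Chat (1.23) passed Slc6a2 (0.870) in unbound.

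**Figure D5:**
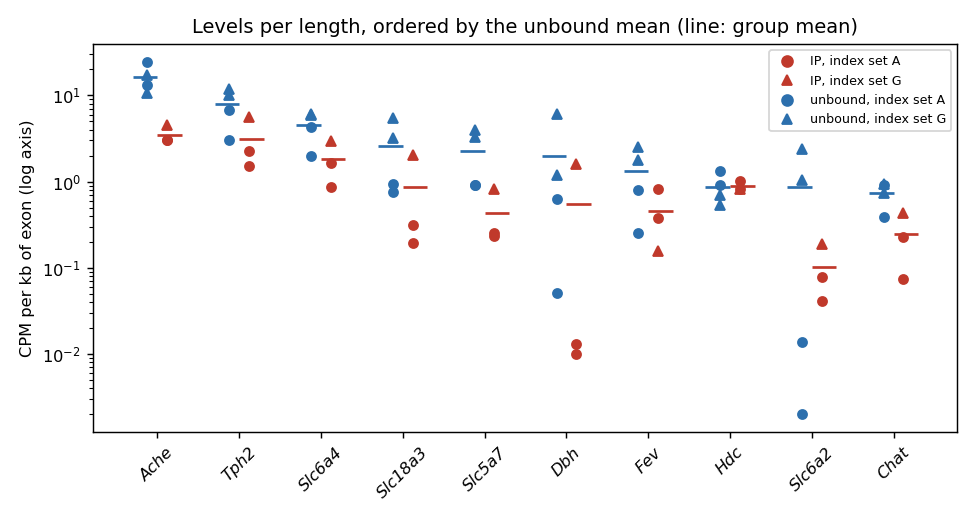
CPM per kilobase of exon (log axis) for the 10 genes ordered by their unbound mean, with 1 point per library and separate colours for IP and unbound. Points of neighbouring genes overlap all along the order, and Dbh and Slc6a2 run over the widest ranges.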

How the data were processed

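The authors deposited raw read counts per gene symbol for 3 IP and 4 unbound libraries. The submitters' processing notes name STAR 2.0.0e, HTSeq and the build mm10. Which annotation, strand setting and filters the authors used is not given in the sources used here, so reads of overlapping genes can be lost or misplaced. The groups differed in such losses. Reads set aside as ambiguous between genes were 1.43 to 1.63% in IP and 7.26 to 11.5% in unbound. Reads without a unique alignment were 33.0 to 39.6% in IP and 17.6 to 34.6% in unbound. The 6 rows that name no gene were left out. The members and gene lists were chosen with earlier results of these data known. Named were the 10 members, the 3 nearest genes of Tph2, Chat, Dbh, Slc6a2 and Hdc, the 4 largest called changes and 2 most abundant genes of each pathway list, and the most abundant gene of marker lists. Some genes this rule names are not reported here. Counts were fitted with edgeR 4.0.16 in R 4.3.3 (filterByExpr, TMM, robust quasi-likelihood, 2-sided, adjusted p threshold 0.05), with DESeq2 1.42.0 and limma 3.58.1 (voom) as alternatives besides other scalings, filters, index and replicate terms and leave-one-out fits. The fits were also run on simulated counts. These had no index effect and no change in pan-neuronal genes, so they do not test either case. The standard errors given with edgeR fits are the absolute log2 fold change divided by the square root of the test's F statistic. Likeness used log2 CPM with a prior count of 2. Lengths and positions came from GENCODE M21 (GRCm38), in which all 10 symbols matched. The index comparisons were added after the values were seen.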

Additional observations from a re-analysis of the deposited data

Results flagged for a closer look

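Qdpr, the enzyme that recycles the cofactor of the tryptophan and tyrosine hydroxylases, stood apart in unbound 2, at 348.3 CPM. Its gap to the nearest other unbound library was 0.894 of the whole range of the 4, above the 95% critical value of Dixon's test for 4 values. Htr5b, a serotonin receptor, stood apart in unbound 1 at 6.554 CPM, with a gap of 0.938 of the range. The unbound levels of 34 genes were examined in this way and 2 had a library apart, while chance marks about 1 in 20 groups.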

How the results depend on the processing

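Against 3 of the 10 genes called lower in IP than in unbound, 5 were called with DESeq2 and 5 with the index as a covariate, 1 within ACAGTG and 7 within GTGAAA, and 1 to 7 when 1 library was left out (1 without IP 1 or IP 2, 7 without IP 4). Against 6950 genes called in all, 7931 were called with DESeq2, 7427 with the index covariate, 3886 within ACAGTG, 7186 within GTGAAA and 4547 to 7682 with 1 library left out. These totals count both directions. Lower in IP were 3328 genes in the main fit, 3993 with DESeq2 and 3654 with the index covariate. Without IP 1, IP 2 or IP 4 the lower genes numbered 1899, 1751 and 3213. Per pan-neuronal count, 0 to 1 of the 10 were lower with 1 library left out, and the index comparison gave 0 to 711 genes and 0 to 4 of the 10. The log2 fold change of Slc6a2 turned to 0.0892 with voom, 1.15 with the replicate block, 0.80 with the index covariate and 2.94 within ACAGTG, and per pan-neuronal count to 3.12 with the replicate block and 2.98 with the index covariate. Fev turned to 0.18 within ACAGTG. Hdc turned to -0.0371 with a filter of 5 CPM, -0.0265 with the index covariate and -0.31 within ACAGTG. Slc18a3 per pan-neuronal count turned to 0.41 with the replicate block and 0.27 with the index covariate, and Chat to -0.00871 with a median ratio. Leaving out 1 library gave, per pan-neuronal count, -0.20 to 0.49 for Chat, -5.13 to 0.96 for Dbh, -0.21 to 1.14 for Fev, -1.01 to 0.56 for Slc18a3 and -1.67 to 0.081 for Slc6a2. For IP against unbound it gave -0.17 to 0.28 for Hdc and -0.38 to 0.0245 for Chka, and for the index comparison -0.44 to 0.33 for Ache and -0.15 to 2.02 for Fev. The cause was not tested. Same-numbered IP and unbound libraries correlated at -0.0646, 0.0712 and 0.227. IP 2 and IP 4 correlated best with the unbound library of their own number, but IP 1 correlated best with unbound 2 (0.316). These correlations did not settle whether the numbers pair the samples, and the main fit was unpaired. With the replicate block 4 of the 10 were lower and 5706 genes were called. Dbh could not be tested within ACAGTG, where its counts were too low. Depth limits Dbh, Slc6a2 and Fev, whose IP levels rest on as few as 2, 15 and 13 counts.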

Other observations

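The remaining genes were also set beside their nearest profiles, chosen after the values were seen. Fev was nearest to Gm10767 at 0.56, Atp8b3 at 0.61 and UCP4 at 0.62. Slc18a3 was nearest to Lamp5, a membrane protein of some inhibitory neurons, at a root mean square difference of 0.21, with Slc5a7 further down at 0.53. Slc5a7 was nearest to the synaptotagmin Syt2 at 0.41, followed by St18 at 0.43 and Myrf, a transcription factor of oligodendrocytes, at 0.43. Myrf stood at 13.1, 16.7 and 41.6 CPM in IP and 68.9, 54.3, 122.8 and 113.6 in unbound, so it also was highest in set G of each group. Ache was nearest to Esyt3 at 0.13 and Trank1 at 0.21. Ecel1 followed, also at 0.21.

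The habenula contains cholinergic neurons. Of 9 of its genes, 4 were lower in IP and 0 higher, against 18.9% and 20.5% of all tested genes. The median log2 fold change of the 9 was -1.57, near the -1.69 of the pan-neuronal list. The 4 lower genes were the nicotinic receptor subunits Chrna3 and Chrnb4, the transcription factor Pou4f1 and the tachykinin Tac1, named after their values were seen. The most abundant was Tac1, at 7.82 ± 0.986 CPM in IP and 38.3 ± 22.6 in unbound (SD, n = 3 and 4). The sum of the 9 was 181.5, 130.3, 79.1 and 112.9 CPM in unbound 1 to 4 and 58.2, 38.7 and 57.7 CPM in IP 1, 2 and 4.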
